A study of Mus musculus and Oryctolagus cuniculus and Sus scrofa with 20 samples.

Results

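Small RNA libraries of round spermatids and pachytene spermatocytes were set side by side. They are 2 of the 20 samples of a series on small RNAs of the male germ line in mouse, rabbit, pig and rat. Each stage is represented by 1 library, so the differences below have no replicate check and carry no p-value. The round spermatids (labelled round sperms) and the pachytene spermatocytes were both isolated from testes of wild-type C57BL/6 mice at postnatal day 25, with no treatment, and total cellular RNA was sequenced as small RNA. How many animals were pooled and how pure each cell fraction was are not given in the sources used here. The round spermatid file holds 23552284 reads of 2570481 distinct sequences (tags), and the pachytene file holds 22785285 reads of 3713036 tags, all of them 17 to 41 nt long. At this depth counting error is small, and the 95% Clopper-Pearson (exact binomial) intervals given below cover counting error only. In whole-fraction RNA, fewer cells of a type and less RNA per cell cannot be told apart.

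Pachytene spermatocytes are the cells of meiotic prophase in which homologous chromosomes are fully paired, and round spermatids are the haploid cells that follow meiosis. Both are rich in piRNAs, small RNAs bound by PIWI proteins. A piRNA begins as a precursor fragment whose 5′ end, usually a U (read as T in the tags), is anchored in the PIWI protein, and its 3′ end is then trimmed and methylated. In mouse, MILI (PIWIL2) holds shorter piRNAs than MIWI (PIWIL1), which appears during the pachytene stage and persists into round spermatids. Which protein held the RNAs was not measured here.

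Tags of 3 piRNA 5′ ends (A, B and C) in exons of annotated noncoding transcripts show how one 5′ end carries several 3′ ends. They were chosen after their values were seen. All were read from the deposited tags, which are written in DNA letters 5′ to 3′, and placed on GENCODE vM21 transcripts (GRCm38). A capital T marks a last base that is not in the transcript at that position. For each 5′ end the forms with at least 2% of its reads that illustrate the pattern are shown.

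End A lies at chr7:73824992-73825023 on the plus strand, in exon 1 of 4 of the lincRNA Gm21269, and 3 forms held nearly all of its reads.
A, 30 nt, templated: tatgtgaatttcaactgttggctccacagg
A, 30 nt, added T: tatgtgaatttcaactgttggctccacagT
A, 31 nt, added T: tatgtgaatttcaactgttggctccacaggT

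End B lies at chr17:27358606-27358637 on the plus strand, in exon 1 of 2 of the lincRNA Gm49794, and its main forms were 5 nt apart.
B, 27 nt, templated: taccagttggataatgcacttcctatt
B, 32 nt, templated: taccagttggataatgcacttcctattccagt

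End C lies at chr17:27357417-27357448 on the plus strand, in the same exon of Gm49794.
C, 26 nt, templated: tatgagctctatcgggtttctgaacc
C, 26 nt, added T: tatgagctctatcgggtttctgaacT
C, 29 nt, added T: tatgagctctatcgggtttctgaaccctT
C, 31 nt, added T: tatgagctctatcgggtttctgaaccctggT

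The piRNA-sized reads were longer in round spermatids. Reads of 25 to 32 nt made up 83.6% of the round spermatid library and 76.9% of the pachytene library. Of these, 83.8% (interval 83.8 to 83.9) were 29 to 32 nt long in round spermatids, against 49.96% (interval 49.9 to 50.0) in pachytene spermatocytes, a difference of 33.9 percentage points. Counting each distinct tag once, the shares were 72.5% in round spermatids and 50.4% in pachytene spermatocytes, a difference of 22.2 points. Their mean length was 29.75 nt in round spermatids and 28.39 nt in pachytene spermatocytes. The pachytene library had a broad shoulder at 26 nt (11.5% of all reads) and 27 nt (11.4%) beside its peak at 30 nt (13.5%). In round spermatids the 26-nt and 27-nt classes held 2.70% and 3.80% of all reads, and the 30-nt class held 27.6%.

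**Figure D1:**
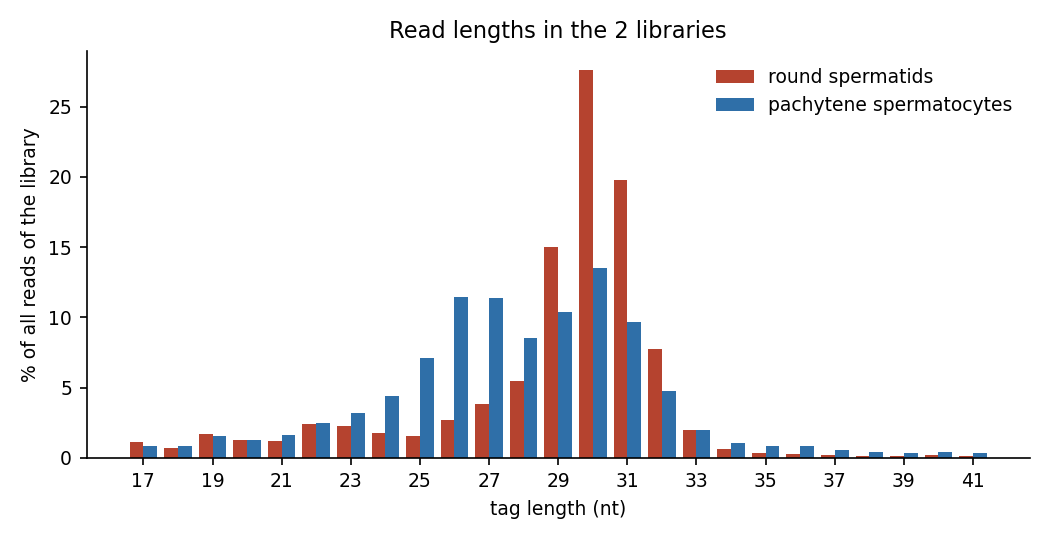
Share of all reads of each library (y axis, %) by tag length (x axis, nt), with round spermatids in red and pachytene spermatocytes in blue, 1 library each. Round spermatids have a single peak at 30 nt (27.6%), and the pachytene library has 11.5% at 26 nt and 13.5% at 30 nt.

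A T began 86.9% of 25 to 28 nt reads and 89.3% of 29 to 32 nt reads in round spermatids, and 87.9% and 87.4% of the same classes in pachytene spermatocytes. An A at base 10, a mark of piRNAs made by cleavage opposite another piRNA, was found together with a first base other than T in 4.42% of the 25 to 32 nt reads of round spermatids and 4.63% of those of pachytene spermatocytes. Whatever the first base, base 10 was an A in 29.7% of 25 to 28 nt and 33.2% of 29 to 32 nt reads in round spermatids. In pachytene spermatocytes it was an A in 27.4% and 33.8% of the same classes. The 4.42% and 4.63% are therefore not shares of reads made by such cleavage. The 20 to 24 nt class held 8.90% of all reads in round spermatids and 13.0% in pachytene spermatocytes. The 33 to 41 nt class held 3.96% in round spermatids and 6.90% in pachytene spermatocytes. Elsewhere in the mouse series the 29 to 32 nt share of 25 to 32 nt reads was 51.0% and 54.1% in the wild-type libraries of cultured spermatogonia stem cells, 56.9% in pre-leptotene, 50.9% in leptotene and 40.6% in zygotene spermatocytes, and 83.3% in mature sperm, so it did not increase steadily with stage.

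Most piRNA-sized reads of both stages began at the same places. A 5′ end was taken as the first 24 bases of a 25 to 32 nt tag, and 408809 such 5′ ends were found in both libraries. The shared 5′ ends held 94.3% (interval 94.30 to 94.32) of the piRNA-sized reads of round spermatids and 90.3% (interval 90.32 to 90.35) of those of pachytene spermatocytes. Whole tags were shared less often, with 87.6% of round spermatid reads and 77.7% of pachytene reads of this size in tags found in both.

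At these shared 5′ ends the 3′ ends lay further downstream in round spermatids. Among the 14958 5′ ends with at least 100 reads in each library, 8224 had a mean length at least 0.5 nt greater in round spermatids, which is 55.0% of those compared, and 204 (1.36%) were at least 0.5 nt shorter. The mean change, weighted by the average of the shares in the libraries, was 0.62 nt, with a median of 0.60 nt and quartiles of 0.17 and 1.18 nt. At 885 of the 5′ ends the change was 2 nt or more, against 5 that shortened by as much. The most frequent single length was 25 to 28 nt at 2170 of these 5′ ends in round spermatids and at 5929 in pachytene spermatocytes, and it moved into the 29 to 32 nt range at 3886 of them and out of it at 127.

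**Figure D2:**
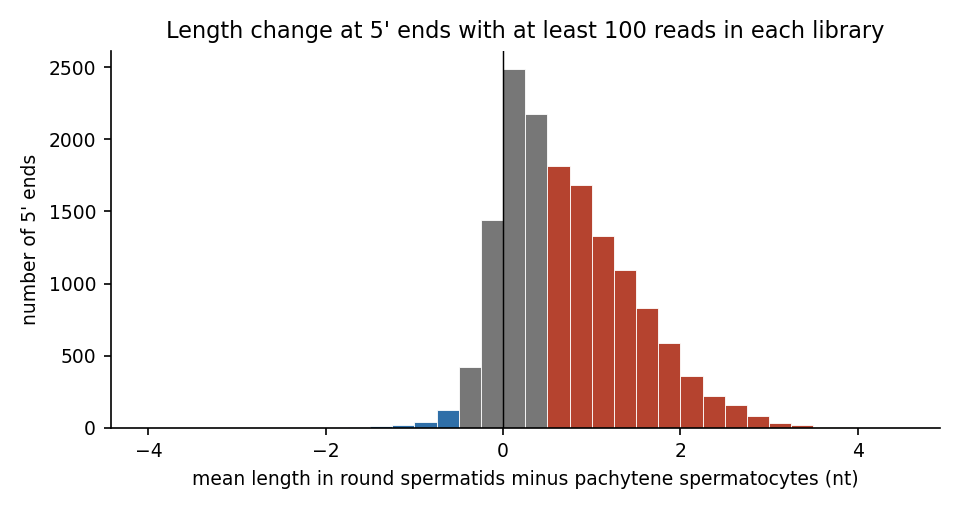
Number of 5′ ends (y axis) by the mean length in round spermatids minus that in pachytene spermatocytes (x axis, nt, bins of 0.25 nt), over the 14958 5′ ends with at least 100 reads in each library. Red bars are 0.5 nt or more longer in round spermatids (8224 5′ ends), blue bars 0.5 nt or more shorter (204), grey bars lie between.

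A change of 3′ end at kept 5′ ends made up only part of the overall lengthening. The 14958 5′ ends held 66.9% of the piRNA-sized reads of round spermatids and 54.5% of those of pachytene spermatocytes. The split below does not cover 5′ ends with fewer than 100 reads in either library. Over the reads at these 14958 5′ ends the mean length was 29.85 nt in round spermatids and 28.58 nt in pachytene spermatocytes. Of that 1.27 nt difference, 0.63 nt lay within 5′ ends and 0.64 nt came from a different weight of long and short 5′ ends. The 1716 5′ ends with a mean length of 27 to 28 nt (averaged over the libraries) had a median log2 change in level of -0.96, in shares of the piRNA-sized reads, and a median lengthening of 1.06 nt. The 2496 5′ ends with a mean of 30 to 31 nt had a median log2 change of 0.57 in level and lengthened by a median of 0.25 nt. The length of a 5′ end enters both of these values, so they are a description. Across all 33020 5′ ends with at least 100 reads in either library, 3457 (10.5%) were at least 4-fold higher in round spermatids and 7018 (21.3%) at least 4-fold lower.

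The round spermatid library was also the more concentrated. Its 10 most abundant 5′ ends held 8.33% of its piRNA-sized reads, against 3.15% for the 10 most abundant in pachytene spermatocytes, and the top 1000 held 36.9% in round spermatids and 25.2% in pachytene spermatocytes. The most abundant 5′ end in round spermatids was end A of Gm21269, with 574018 reads in round spermatids and 67037 in pachytene spermatocytes, a log2 change of 2.93. Another of the 5 most abundant, in the antisense-class noncoding transcript Gm14244 on chromosome 2, had 124177 reads in round spermatids and 3917 in pachytene spermatocytes (log2 change 4.82). The other 3 of the 5 most abundant matched no GENCODE transcript, and had 281428, 180896 and 126381 reads in round spermatids against 139356, 37895 and 90173 in pachytene spermatocytes. Among the 5 most abundant 5′ ends of pachytene spermatocytes, 1 went the other way. It matched no transcript, had 1038 reads in round spermatids against 41737 in pachytene spermatocytes (log2 change -5.50), and its tags were short in both, with mean lengths of 26.23 nt and 26.31 nt.

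The 5 5′ ends that lengthened most, among those with at least 1000 reads in each library, gained 2.85 to 3.42 nt. Only end B of the 5 matched a single annotated gene. End B had 2858 reads with a mean length of 30.90 nt in round spermatids, and 7127 reads with a mean of 28.05 nt in pachytene spermatocytes. Its 32-nt form held 61.8% of the reads in round spermatids and 20.6% in pachytene spermatocytes, while its 27-nt form held 8.26% in round spermatids and 43.3% in pachytene spermatocytes. Both forms were fully templated and both were present in each library. The 5 that shortened most lost 0.78 to 1.03 nt, and 2 of them lay in protein-coding genes, Nemp1 (28.85 nt in round spermatids, 29.88 nt in pachytene spermatocytes) and Tbl2 (30.42 nt in round spermatids, 31.20 nt in pachytene spermatocytes).

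A T that the transcript does not encode was more frequent at the 3′ end in round spermatids. This was read at 379272 5′ ends that lie in 1 annotated gene with a single continuation, which hold 18.1% of the piRNA-sized reads of round spermatids and 14.8% of those of pachytene spermatocytes. In round spermatids 28.4% (interval 28.3 to 28.4) of these reads ended in a T as their only base off the template, against 13.1% (interval 13.06 to 13.14) in pachytene spermatocytes. A last A, C or G off the template was rare, at 0.887%, 0.348% and 0.031% in round spermatids and 1.35%, 0.516% and 0.059% in pachytene spermatocytes. The methylation of the 3′ ends was not measured here. No genome was used, so a tag whose true source is another, unannotated locus would count as off the template.

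The size of that difference depended on a few very abundant 5′ ends. Without the 10 most abundant placed 5′ ends the shares were 17.2% in round spermatids and 11.6% in pachytene spermatocytes. When the template was instead read from longer tags of the same 5′ end, which covers 45.6% of the piRNA-sized reads of round spermatids and 52.1% of those of pachytene spermatocytes, the shares were 12.4% in round spermatids and 8.50% in pachytene spermatocytes. The added T was a feature of long tags in both stages. It ended 42.3% of placed 31-nt reads in round spermatids and 28.8% in pachytene spermatocytes, but 5.86% of 27-nt reads in round spermatids and 8.99% in pachytene spermatocytes. Of the 31-nt reads with added T, end A alone held 242722 of 403108 in round spermatids and 22041 of 84769 in pachytene spermatocytes. The larger share in round spermatids at 31 nt thus rested on end A. The base that followed the last templated base was a T in 25.9% of templated reads of round spermatids and 27.4% of those of pachytene spermatocytes.

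The added T made up the smaller part of the lengthening. Over 1836 placed 5′ ends with at least 100 reads in each library that are templated or end in 1 added T, the mean lengthening was 0.56 nt, of which 0.45 nt was a move of the last templated base and 0.10 nt the added T. The share of added T was larger in round spermatids at 1149 of them and smaller at 648, with medians of 10.4% in round spermatids and 8.33% in pachytene spermatocytes.

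Added T was more frequent in round spermatids at both end A and end C, and of these only end C lengthened clearly, by 2.37 nt. At end A the templated 30-nt form had 95265 reads in round spermatids and 30803 in pachytene spermatocytes, and the 30-nt form with added T had 223675 in round spermatids and 10845 in pachytene spermatocytes. The 31-nt form with added T had 242722 reads in round spermatids and 22041 in pachytene spermatocytes. Added T thus ended 81.4% (interval 81.3 to 81.5) of the reads of end A in round spermatids and 49.9% (interval 49.5 to 50.2) in pachytene spermatocytes, while its mean length hardly moved (30.42 nt in round spermatids, 30.32 nt in pachytene spermatocytes). A second 5′ end of Gm21269, starting 2 bases downstream of end A, had an added T on 90.8% of 75925 reads in round spermatids and 63.8% of 33496 reads in pachytene spermatocytes. At end C the T ended 65.2% of 3719 reads in round spermatids and 50.6% of 9637 reads in pachytene spermatocytes. In round spermatids 48.3% of the reads of end C were the 31-nt form with added T, against 3.15% in pachytene spermatocytes, where the 26-nt templated form (19.4%) and the 29-nt form with added T (21.8%) were the most frequent.

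**Figure D3:**
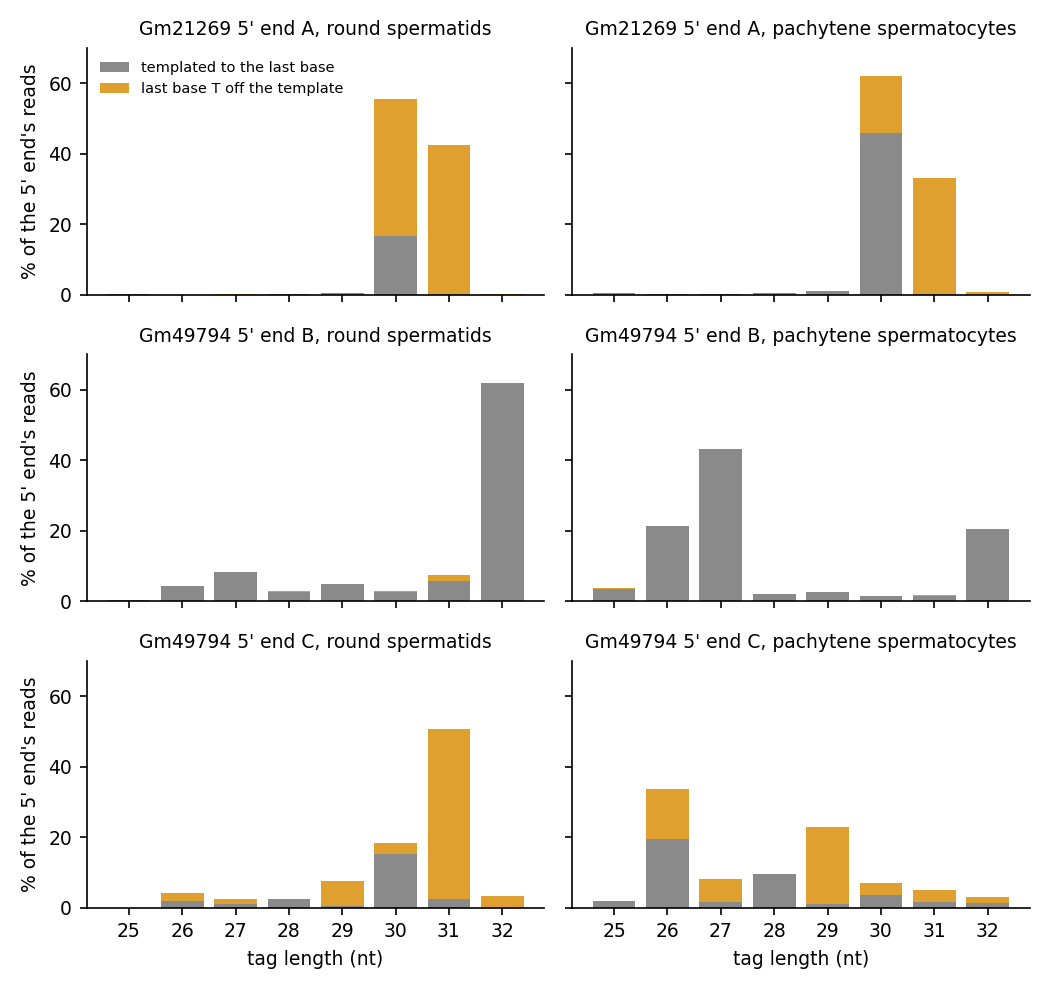
Share of each 5′ end's reads (y axis, %) by tag length (x axis, nt) for ends A, B and C, with round spermatids on the left and pachytene spermatocytes on the right. Grey parts are tags templated to the last base and orange parts are tags whose last base alone is a T off the template. The most frequent form of end B is 32 nt in round spermatids (61.8%) and 27 nt in pachytene spermatocytes (43.3%), and at end A the orange share is 81.4% in round spermatids and 49.9% in pachytene spermatocytes.

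By gene, piRNA-sized reads lengthened almost everywhere and their levels moved in both directions. In all, 163 genes had at least 1000 sense reads in 1 of the libraries from 5′ ends that match no other gene. Their reads were longer in round spermatids in 160, with a median gain of 1.18 nt, and at least 0.5 nt longer in 88.3%. The 3 exceptions, named after their values were seen, were Gm34768, Gm7102 and Gm26202, and Gm34768 had only 4 reads in pachytene spermatocytes. Per 1000000 piRNA-sized reads, 52 genes (31.9%) were at least 2-fold higher in round spermatids and 38 (23.3%) at least 2-fold lower. Among 96 protein-coding genes 34 were higher and 22 lower by that measure, and among 36 lincRNAs 8 were higher and 6 lower.

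The 10 genes with the most piRNA-sized reads held 8.46% of those reads in round spermatids and 6.53% in pachytene spermatocytes, and 9 of the 10 are noncoding. Gm21269 (chr7:73816546-73838898, plus strand) had 45338 reads per 1000000 piRNA-sized reads in round spermatids and 17910 in pachytene spermatocytes, a log2 change of 1.34, and this rested on end A: without the most abundant 5′ end of each library the log2 change was 0.20. Gm10619 (chr7:73781429-73816503, minus strand), which lies next to it on the other strand, had 3468 per 1000000 in round spermatids and 4088 in pachytene spermatocytes. Gm14244 (chr2:127691899-127700488, plus strand) had 9052 per 1000000 in round spermatids and 1605 in pachytene spermatocytes, and its log2 change was 0.99 without its most abundant 5′ ends.

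A pair of neighbouring genes on the plus strand of chromosome 17 was lower in round spermatids. Gm49794 (chr17:27354111-27367492) had 5752 reads per 1000000 in round spermatids and 17495 in pachytene spermatocytes, a log2 change of -1.60. Gm10505 (chr17:27325035-27344833) had 1604 per 1000000 in round spermatids and 8781 in pachytene spermatocytes, a log2 change of -2.45. Leaving out their most abundant 5′ ends gave log2 changes of -1.71 and -2.52. Their pachytene reads were among the shortest of the 10, with means of 27.52 nt for Gm49794 and 27.36 nt for Gm10505, against 29.31 nt and 28.71 nt for the same genes in round spermatids.

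Of the remaining 5 genes, 1700042G15Rik and Cbl were about as much higher in round spermatids as each other, with log2 changes of 0.95 and 0.95. Cbl, which encodes an E3 ubiquitin ligase and is the only protein-coding gene of the 10, had 3470 reads per 1000000 in round spermatids and 1794 in pachytene spermatocytes. 1700001L05Rik, 1700020N18Rik and 1700029M20Rik had log2 changes of 0.03, 0.29 and -0.20. All 10 genes lengthened, by 0.73 to 1.84 nt. Within protein-coding transcripts the 3′ untranslated region held 75.2% of the sense piRNA-sized reads in round spermatids and 65.4% in pachytene spermatocytes, and the coding sequence held 22.2% in round spermatids and 31.2% in pachytene spermatocytes.

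Tags of 19 nt stood apart from their neighbours in length. A PIWI protein that cleaves its target cuts it opposite bases 10 and 11 of the guide piRNA, and short by-products that end at such a cut have been described in animal germ cells. The arrangement is shown by the placed 19-nt tag of this kind with the most reads in round spermatids. It lies opposite exon 3 of the lincRNA 4933440M02Rik, at chr7:125330674-125330692 on the plus strand (antisense to the gene). Capitals mark bases 11 to 29 of the opposite-strand tag, which are complementary to the 19-nt tag.
19-nt tag: attggatctggtctctacc
Opposite-strand 31-nt tag: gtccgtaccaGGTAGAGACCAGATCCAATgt
27-nt tag starting at the next base: tggtacggactgagaaccacaggagga
The 19-nt tag had 274 reads in round spermatids and 2 in pachytene spermatocytes, the opposite-strand tag had 264 in round spermatids and 42 in pachytene spermatocytes, and the tag that starts at the next base had 43 in round spermatids and 0 in pachytene spermatocytes. It was chosen for its reads in round spermatids, so its difference between stages is a description.

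Reads of 19 nt made up 1.70% (interval 1.69 to 1.70) of the round spermatid library and 1.59% (interval 1.58 to 1.59) of the pachytene library. This difference of 0.111 points was 0.0050 points over T-first reads and 0.821 points over distinct tags. In round spermatids 30.9% (interval 30.73 to 31.01) of 19-nt reads were the exact reverse complement of bases 11 to 29 of some 25 to 32 nt tag of the same library, and in pachytene spermatocytes 30.1% (interval 30.0 to 30.3). Only tags of at least 29 nt have these bases. Such tags held 83.8% of the piRNA-sized reads in round spermatids and 49.96% in pachytene spermatocytes, so the libraries are compared over unlike pools. Pairing from a later base needs longer tags still. Pairing that started at base 10 in place of 11 was met by 12.1% of reads in round spermatids and 18.5% in pachytene spermatocytes, and pairing that started at base 12 by 7.57% in round spermatids and 12.9% in pachytene spermatocytes. Counting only 25 to 32 nt tags with at least 10 reads, the share at base 11 was 13.5% in round spermatids against a median of 2.02% over the other start bases from 6 to 12, and 15.1% in pachytene spermatocytes against 3.83%, so which library has the larger share at base 11 depends on this minimum.

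Other short lengths did not show this. Reads complementary from base 11 onward were 2.32% of 18-nt reads and 4.59% of 20-nt reads in round spermatids, and 6.89% and 4.78% of the same lengths in pachytene spermatocytes. A longer read needs a longer tag for this pairing, so the lengths are compared over unlike pools of tags. Conversely, the share of reads that simply begin a 25 to 32 nt tag was lowest at 19 nt. It was 50.5% (interval 50.3 to 50.6) in round spermatids and 66.1% (interval 65.9 to 66.2) in pachytene spermatocytes, against 80.0% and 83.3% for 18-nt and 20-nt reads in round spermatids and 80.3% and 84.7% in pachytene spermatocytes. Where the 25 to 32 nt tag needed at least 10 reads, the 19-nt shares were 31.5% in round spermatids and 40.5% in pachytene spermatocytes, a difference of -9.00 points in place of -15.6. The 19-nt reads that begin a piRNA-sized tag started with T in 74.6% of cases in round spermatids and 68.4% in pachytene spermatocytes, and those that begin none in 27.3% in round spermatids and 25.3% in pachytene spermatocytes.

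The same spacing was seen on transcripts. The 19-nt reads whose tag lies in 1 gene numbered 66881 in round spermatids and 55852 in pachytene spermatocytes. They were only 16.7% of the 19-nt reads of round spermatids and 15.4% of those of pachytene spermatocytes. A 5′ end of piRNA-sized tags with at least 10 reads lay on the opposite strand 28 nt downstream of the tag's 5′ end for 18.5% of these reads in round spermatids and 10.2% in pachytene spermatocytes, where other distances within 40 nt had medians of 2.32% in round spermatids and 1.73% in pachytene spermatocytes. On the same strand such a 5′ end began at the base after the 19-nt tag for 18.4% in round spermatids and 18.4% in pachytene spermatocytes, over medians of 3.18% in round spermatids and 6.92% in pachytene spermatocytes. A 5′ end at the tag's own first base was found for 27.8% of the reads in round spermatids and 53.0% in pachytene spermatocytes.

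**Figure D4:**
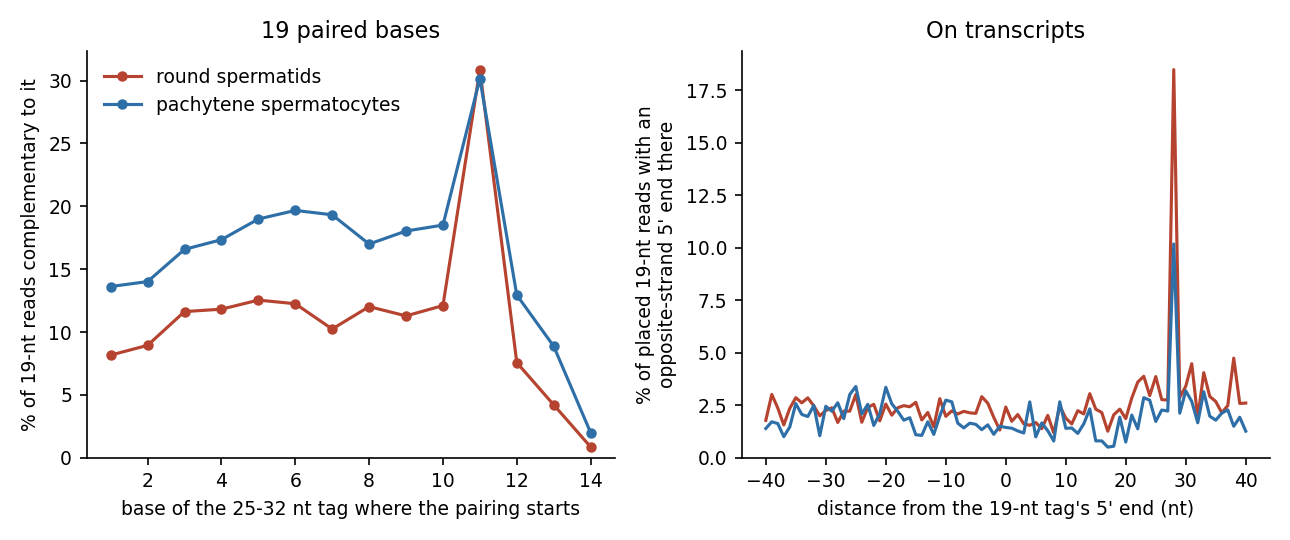
Left, share of 19-nt reads (y axis, %) that are the reverse complement of 19 bases of a 25 to 32 nt tag of the same library, by the base of that tag where the pairing starts (x axis). Right, share of placed 19-nt reads (y axis, %) with an opposite-strand piRNA-sized 5′ end at each distance from the 19-nt tag's 5′ end (x axis, nt). Round spermatids (red) and pachytene spermatocytes (blue) both peak at base 11, at 30.9% and 30.1%, and at 28 nt, at 18.5% and 10.2%.

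Most 19-nt reads were in tags found in both libraries, though a smaller part than over all lengths. Of the 19-nt reads, 64.2% in round spermatids and 69.6% in pachytene spermatocytes were in such shared tags. Over reads of all lengths the shares were 86.4% in round spermatids and 74.3% in pachytene spermatocytes. Of the complementary 19-nt reads, 60.3% in round spermatids and 83.3% in pachytene spermatocytes were in shared tags. All 8 tags that are among the 5 most abundant of either library begin a 25 to 32 nt tag in both libraries, and the only placed one of the 8 lies in the mitochondrial serine tRNA mt-Ts2, with 2037 reads in round spermatids and 12777 in pachytene spermatocytes. The highest in round spermatids matched no transcript and had 16276 reads in round spermatids and 6336 in pachytene spermatocytes.

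MicroRNAs, which guide Argonaute proteins to messenger RNAs through a seed at bases 2 to 8, were a small part of both libraries. Reads of 18 to 26 nt that begin with the first 18 bases of a mature miRNA of the RefSeq table numbered 491998 in round spermatids (2.09% of all reads) and 314112 in pachytene spermatocytes (1.38%). The log2 change of this total is 0.60, so every miRNA stands 0.60 higher on the log2 scale when scaled to all reads than when scaled to miRNA reads, and changes below are per miRNA read unless stated. The mature sequences of the miRNAs on which the comparison turns come from RefSeq (GRCm38.p6) and have the seed in capitals. The first 4 share a seed.
miR-15b-5p: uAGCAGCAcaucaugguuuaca
miR-16-5p: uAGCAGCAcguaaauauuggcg
miR-195a-5p: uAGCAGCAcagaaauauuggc
miR-497a-5p: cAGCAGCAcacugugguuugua
miR-17-5p: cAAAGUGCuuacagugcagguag
miR-20a-5p: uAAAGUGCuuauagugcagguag
miR-106b-5p: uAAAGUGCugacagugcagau
miR-191-5p: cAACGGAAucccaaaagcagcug
miR-741-3p: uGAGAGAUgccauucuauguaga
miR-871-3p: uGACUGGCaccauucuggauaau

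Among the 129 miRNA entries with at least 100 reads in 1 library, 7 (5.43%) were at least 4-fold higher in round spermatids and 17 (13.2%) at least 4-fold lower, per miRNA read. Scaled to all reads, 7 were higher and 11 lower by that measure. The median log2 change over the 129 was -0.37 per miRNA read and 0.22 per read of the library. Of the 129, 42 were higher and 87 lower to any degree per miRNA read, and 83 were higher and 46 lower per read of the library. The most abundant entry in round spermatids was miR-191-5p, with 123386 reads in round spermatids and 37192 in pachytene spermatocytes, a log2 change of 1.08 per miRNA read (interval 1.07 to 1.10). In pachytene spermatocytes the most abundant was miR-741-3p, with 68987 reads in round spermatids and 61238 in pachytene spermatocytes, a log2 change of -0.48 per miRNA read but 0.12 per read of the library. Of the 10 most abundant entries of each library 6 were the same.

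The miR-15 and miR-16 family, whose members restrain cell cycle genes, contained the 2 entries with the largest increase. miR-497a-5p (chr11:70234730-70234751) had 263 reads in round spermatids and 10 in pachytene spermatocytes, a log2 change of 4.07 (interval 3.17 to 5.15). Its neighbour miR-195a-5p (chr11:70235062-70235082) had 1406 reads in round spermatids and 72 in pachytene spermatocytes, a log2 change of 3.64. miR-15b-5p, with 7710 reads in round spermatids and 2137 in pachytene spermatocytes, and miR-16-5p, with 11511 in round spermatids and 4253 in pachytene spermatocytes, had log2 changes of 1.20 and 0.79. Of the family's 7 entries with at least 100 reads, 5 were higher and 2 lower per miRNA read (42 and 87 over all 129 entries), with a median of 0.79 against -0.37 over all entries. Per read of the library 6 were higher and 1 lower (83 and 46 over all entries).

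The other entries at least 4-fold higher in round spermatids came from several families. miR-146a-5p had 1011 reads in round spermatids and 62 in pachytene spermatocytes, and miR-409-5p had 3259 in round spermatids and 216 in pachytene spermatocytes. miR-147-5p had 206 reads in round spermatids and 23 in pachytene spermatocytes, and miR-130b-5p had 564 in round spermatids and 85 in pachytene spermatocytes. miR-184-3p, the most abundant of them, had 9311 reads in round spermatids and 1482 in pachytene spermatocytes. Of these, miR-146a-5p changed most, with a log2 change of 3.38. The following 2 in that order, miR-541-5p and miR-100-5p, had log2 changes of 1.39 and 1.33. miR-10b-5p had 9897 reads in round spermatids and 2706 in pachytene spermatocytes, a log2 change of 1.22.

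Most of the entries furthest below 0 had few or unusual reads. miR-449c-5p, the furthest, had 2 reads in round spermatids and 525 in pachytene spermatocytes, but those reads averaged 25.5 nt in pachytene spermatocytes against a mature length of 21 nt, and none had the reference form. miR-1195 had 80 reads in round spermatids and 1222 in pachytene spermatocytes, and miR-7217-3p had 269 in round spermatids and 1921 in pachytene spermatocytes. These 2, miR-7233-3p, miR-7242-3p, miR-7232-3p and miR-3470b had log2 changes of -3.41 to -4.58. Of all reads that begin like these 6 entries, 24.3% to 84.4% were longer than the 26 nt limit, in the piRNA range. Leaving out the 7 entries with over 50% of such reads, 7 entries were higher and 14 lower by 4-fold. Among the entries with few such reads, miR-296-3p had 20 reads in round spermatids and 132 in pachytene spermatocytes, and miR-106b-5p had 21 in round spermatids and 134 in pachytene spermatocytes.

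Members of the miR-17 to miR-92 clusters, which promote proliferation in many cell types, did not move together. miR-17-5p had 221 reads in round spermatids and 821 in pachytene spermatocytes, a log2 change of -2.54, and miR-20a-5p, which shares its seed, had 1605 reads in round spermatids and 1825 in pachytene spermatocytes, a log2 change of -0.83. From the same cluster on chromosome 14, miR-19a-3p had 334 reads in round spermatids and 123 in pachytene spermatocytes, a log2 change of 0.79. miR-19b-3p, which is also encoded on the X chromosome, had 1172 reads in round spermatids and 358 in pachytene spermatocytes, a log2 change of 1.06. Over the 10 entries with at least 100 reads 3 were higher and 7 lower per miRNA read, but 7 were higher and 3 lower per read of the library. Both splits are close to those of all 129 entries, at 42 higher and 87 lower per miRNA read and 83 higher and 46 lower per read of the library.

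The X-linked miR-506 family, which is expressed predominantly in male germ cells, held 30.3% of miRNA reads in round spermatids and 45.2% in pachytene spermatocytes. As a share of the whole library it was nearly the same, at 6336 reads per 1000000 in round spermatids and 6234 in pachytene spermatocytes. Of its 23 entries with at least 100 reads, 22 were lower in round spermatids per miRNA read, against 87 of all 129 entries, with a median log2 change of -0.62. Per read of the library 10 were higher and 13 lower, against 83 and 46 of all entries, with a median of -0.02. None of the 23 passed 4-fold in either direction. miR-871-3p had 41216 reads in round spermatids and 41668 in pachytene spermatocytes, and miR-470-5p had 6086 in round spermatids and 8123 in pachytene spermatocytes. Only miR-743a-3p was higher per miRNA read, with 1138 reads in round spermatids and 605 in pachytene spermatocytes.

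**Figure D5:**
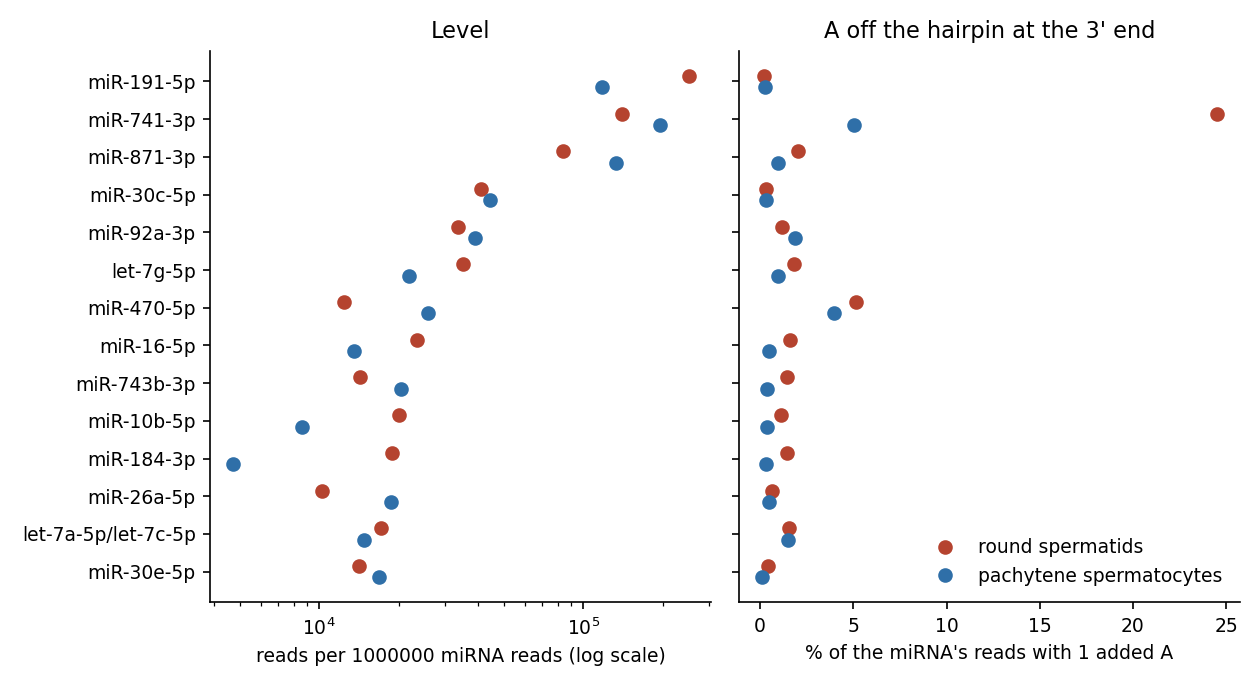
The 14 miRNA entries among the 10 most abundant of either library. Left, reads per 1000000 miRNA reads (x axis, log scale). Right, share of each entry's reads with 1 A off the hairpin sequence at the 3′ end (x axis, %). Round spermatids are red and pachytene spermatocytes blue, 1 library each. miR-191-5p is higher in round spermatids, and added A on miR-741-3p is 24.5% in round spermatids and 5.02% in pachytene spermatocytes.

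As a check of the labels, miRNAs of male germ cells were abundant and those of other cells rare in both libraries. The miR-34 and miR-449 family, which is abundant in meiotic and later male germ cells, included miR-34b-3p, with 7764 reads in round spermatids and 2691 in pachytene spermatocytes. miR-449a-5p had 3188 reads in round spermatids and 1806 in pachytene spermatocytes, and miR-34c-3p had 1479 in round spermatids and 481 in pachytene spermatocytes. Of the family's 5 entries with at least 100 reads, 4 were higher and 1 lower per miRNA read (42 and 87 over all entries). The lower one was miR-449c-5p, with 2 reads in round spermatids and 525 in pachytene spermatocytes. miR-34c-5p, miR-143 and miR-145a were not analysed here. The Sertoli and gonadal miR-202 had 135 reads in round spermatids and 146 in pachytene spermatocytes over both arms. The 5 entries of blood cells summed to 1.36 reads per 1000000 in round spermatids, where 2 were at 0, and 1.18 in pachytene spermatocytes, where 0 were. The 3 entries of smooth muscle and stroma summed to 6.54 per 1000000 in round spermatids, with 1 at 0, and 6.85 in pachytene spermatocytes, with 0 at 0. The 8 entries of epithelia summed to 6.75 per 1000000 in round spermatids, with 2 at 0, and 7.99 in pachytene spermatocytes, with 0 at 0. The 10 entries of stem cells summed to 5.65 per 1000000 in round spermatids and 4.34 in pachytene spermatocytes, with 1 at 0 in each. No entry of these 4 lists had 100 reads in either library. Only entries with reads in at least 1 library were counted as at 0. The listed miR-486a, miR-150, miR-133a, miR-1a, miR-302a and miR-302b were not found and are therefore not among them. None of the lists was made to tell the stages apart, and how far either fraction held cells of the other stage was not tested. The let-7 family held 6.08% of miRNA reads in round spermatids and 4.69% in pachytene spermatocytes.

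The 3′ forms of miRNAs differed, without the general lengthening seen in piRNA-sized tags. The reference form held 37.5% of miRNA reads in round spermatids and 50.5% in pachytene spermatocytes. Shorter forms held 32.1% in round spermatids and 19.1% in pachytene spermatocytes, or 17.5% and 14.1% without miR-191-5p. Longer templated forms held 13.4% in round spermatids and 16.2% in pachytene spermatocytes. The mean length of miRNA reads was 22.46 nt in round spermatids and 22.62 nt in pachytene spermatocytes. Among the 104 entries with at least 100 reads in each library, 7 (6.73%) were at least 0.25 nt longer in round spermatids and 13 (12.5%) at least 0.25 nt shorter, with a median change of -0.02 nt. A single A off the hairpin sequence ended 5.18% (interval 5.11 to 5.24) of miRNA reads in round spermatids and 2.04% (interval 1.99 to 2.09) in pachytene spermatocytes. Its share was larger in round spermatids for 78 of the 104 entries and smaller for 19, and it was at least 5 points larger for 19 and as much smaller for 0. A single T off the hairpin ended 5.63% in round spermatids and 5.33% in pachytene spermatocytes, and was larger for 57 entries and smaller for 42.

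The tags of miR-741-3p and miR-191-5p, the most abundant miRNAs, are shown with the bases off the hairpin in capitals.
miR-741-3p, 23 nt: tgagagatgccattctatgtaga
miR-741-3p, 24 nt, added A: tgagagatgccattctatgtagaA
miR-741-3p, 25 nt, added A and A: tgagagatgccattctatgtagaAA
miR-191-5p, 22 nt: caacggaatcccaaaagcagct
miR-191-5p, 23 nt, added T: caacggaatcccaaaagcagctT
miR-191-5p, 24 nt, templated: caacggaatcccaaaagcagctgt
The 23-nt form of miR-741-3p, its reference form, held 58.4% of its reads in round spermatids and 83.4% in pachytene spermatocytes. The 24-nt form with added A held 24.3% in round spermatids and 4.96% in pachytene spermatocytes, and the 25-nt form held 3.42% in round spermatids and 0.173% in pachytene spermatocytes. Without miR-741-3p the added A ended 2.02% of miRNA reads in round spermatids and 1.32% in pachytene spermatocytes. Added A was also more frequent on miR-100-5p, at 21.4% of its reads in round spermatids and 2.43% in pachytene spermatocytes. It ended 28.4% of miR-19a-3p reads in round spermatids and 4.88% in pachytene spermatocytes, and 17.4% of miR-19b-3p reads in round spermatids and 1.12% in pachytene spermatocytes. The mean length of these 3 was greater in round spermatids, by 0.84, 0.52 and 0.34 nt.

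miR-191-5p shortened by 0.35 nt. Its 22-nt form held 70.8% of its reads in round spermatids and 53.4% in pachytene spermatocytes, while its templated 24-nt form held 11.8% in round spermatids and 26.3% in pachytene spermatocytes. miR-30a-5p shortened by 1.30 nt, to a mean of 21.45 nt in round spermatids against 22.75 nt in pachytene spermatocytes. Its 20-nt form held 57.8% of its reads in round spermatids and 26.8% in pachytene spermatocytes. miR-298-5p, with 159 reads in round spermatids and 224 in pachytene spermatocytes, shortened by 0.86 nt. The largest single change, -2.39 nt for miR-7210-5p, rested on 102 reads in round spermatids and 178 in pachytene spermatocytes, and 94.4% of all reads that begin like it were longer than 26 nt. miR-12204-5p shortened by 0.93 nt, and 76.7% of all reads that begin like it were longer than 26 nt. Of the 20 entries that changed by at least 0.25 nt, 4 had most such reads above 26 nt.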

How the data were processed

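Per the labels' protocols, total cellular RNA was extracted with TRIzol and made into small RNA libraries by the Illumina protocol and sequenced on a HiSeq instrument. The authors deposited raw read counts, 1 per distinct tag. The submitters' processing notes name Bowtie and several genome builds, mm10 and GRCm38 among them, without their roles, and adapter trimming and length limits are not given in the sources used here. Tag sequences show no methylation or PIWI binding.

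From those counts, shares of reads were computed in Python 3.11.15 with exact Clopper-Pearson intervals. Tags were placed by exact match of their first 24 bases (19-nt tags whole) to GENCODE vM21 transcripts (GRCm38). A miRNA entry joins names with the same first 18 bases, and a count of 0 was set to 3 for fold changes. The length changes at 5′ ends, the fold changes and the pairing counts were checked on simulated data. The shares of reads, the added T and the 3′ forms of miRNAs were not. With 1 library a stage no test was possible. Alternative miRNA scalings used edgeR 4.0.16 and DESeq2 1.42.0 factors.

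The comparison, members and lists were chosen with earlier results of these data known. Names were drawn from the 10 most abundant miRNA entries of each library, the 10 largest rises and falls, the 8 largest length changes and list members, the 5 most abundant 5′ ends and 19-nt tags of each library, the 5 largest length changes each way, and the 10 genes with most piRNA-sized reads. Not all of these are named in the text.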

Additional observations from a re-analysis of the deposited data

How the results depend on the processing

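No paired analysis was possible because each stage has 1 library, and no library could be left out. The alternatives kept the direction of each difference in share, length and added T below. Scaling turned the median log2 change over the 129 miRNAs, from -0.37 per miRNA read to 0.22 per read of the library, 0.04 with TMM factors and 0.18 with DESeq2 factors, and with it the direction of miR-741-3p and the split of the miR-17 to miR-92 clusters. A minimum of 10 reads for the piRNA-sized tag turned the order of the libraries in the 19-nt share that pairs from base 11. The difference of round spermatids minus pachytene spermatocytes in the 29 to 32 nt share was 22.2 points over distinct tags, 34.4 over T-first reads, 33.97 for 24 to 33 nt and 37.0 over tags with at least 10 reads. The mean lengthening at shared 5′ ends was 0.63 nt at a minimum of 20 reads, 0.58 nt at 1000, 0.72 nt with equal weights, 0.65 nt for T-first 5′ ends and 0.66 nt without the 100 most abundant, and 5′ ends at least 0.5 nt longer numbered 30637 at 20 reads and 515 at 1000, and 4727 at a threshold of 1 nt. The round spermatid share of reads at shared 5′ ends was 94.6% with 20-base ends and 87.5% where the other library had 10 reads. The difference in the 19-nt share was small and depended on the reads counted, at 0.821 points over distinct tags, 0.0050 over T-first reads and 0.168 without miRNA, rRNA and mitochondrial tRNA reads (other tRNAs were not in the table used). For 19-nt reads that begin a piRNA-sized tag it was -9.00 points against tags with 10 reads, -18.8 over distinct tags and -10.5 over T-first reads. miRNAs 4-fold higher numbered 13 at a minimum of 4 reads, and 15 were 2-fold higher. Those 4-fold lower numbered 11 scaled to all reads, 11 with DESeq2 factors and 59 at 4 reads, and 29 were 2-fold lower. Mean length changed by 0.25 nt in 5 entries at a minimum of 500 reads, and by 0.5 nt in 9. Chosen after seeing the data, the difference in added T was 5.63 points without the 10 most abundant 5′ ends and 3.89 with the template read from longer tags. The alternatives count other reads or features, or weight and scale them otherwise, and the cause of these moves was not tested.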
